A study of Mus musculus with 8 samples.

Results

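The genes described here encode transporters with which the absorptive cells of the small intestine, the enterocytes, take up sugars, peptides and amino acids from food and pass them to the blood. They were the 10 genes Slc5a1, Slc2a5, Slc15a1, Slc6a19, Slc7a9, Slc3a1, Slc1a1, Slc2a2, Slc7a7 and Slc7a8, picked by name from the array's gene names, and each had 1 probe. They make up 10 of 34963 gene names, on 10 of the 55669 probes used. The samples were mature medullary thymic epithelial cells (mTEC), the thymic stromal cells that make proteins of many other organs and show them to developing T cells, and small intestine epithelial cells (SIEC). RNA was hybridised to 1-colour arrays, and the series title names ectopic gene expression with and without Cdx1, an intestinal homeobox transcription factor, as its subject.

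Cdx1-/- mTEC gave 3 arrays and Cdx1+/+ mTEC gave 3, each from live CD45-negative cells sorted for Epcam, UEA1 binding, high CD80 and high MHC class II out of 4 to 6 pooled thymi. Cdx1-/- SIEC and Cdx1+/+ SIEC gave 1 array each, from live CD45-negative Epcam-positive cells, with 3 mice pooled per sample. All mice had a mixed C57BL/6 and 129 background, and neither their age nor the part of Cdx1 that the allele lacks is given in the sources used here. In pooled tissue RNA, fewer cells that express a gene and less RNA per cell cannot be told apart.

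Levels are on the log2 scale, each signal divided by its array's 75th percentile, and a probe counts as measured where the scanner software called it well above background. Of 59305 spots, 58.6% to 63.5% were well above background on the mTEC arrays and 44.6% and 46.3% on the SIEC arrays, and none was saturated. The Cdx1 probe read 4.93 ± 0.11 in Cdx1-/- mTEC and 5.91 ± 0.044 in Cdx1+/+ mTEC (SD, n = 3 each), and so differed by −0.99 on the log2 scale (SE 0.091; limma, adjusted p = 0.00373). On the SIEC arrays it went against the labels, reading 6.48 where the label is Cdx1-/- and 4.87 where it is Cdx1+/+, so every SIEC direction below is given by label only. All 8 enterocyte markers were well above background on every array of both tissues. All 10 mature mTEC markers were so on the mTEC arrays, against 5 on the SIEC array labelled Cdx1-/- and 6 on that labelled Cdx1+/+.

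Absorption runs across both faces of the enterocyte. On the side facing the gut lumen, Slc5a1 (SGLT1) draws in glucose and galactose with sodium, Slc2a5 (GLUT5) carries fructose, Slc15a1 (PEPT1) takes up di- and tripeptides with protons, Slc6a19 (B0AT1) takes up neutral amino acids with sodium, and Slc1a1 (EAAT3) takes up glutamate and aspartate. Slc7a9 (b0,+AT) and Slc3a1 (rBAT) join into 1 exchanger for cystine and dibasic amino acids, the pair that is mutated in human cystinuria. On the blood-facing side, Slc2a2 (GLUT2) lets sugars out, and Slc7a7 (y+LAT1) and Slc7a8 (LAT2) exchange dibasic and neutral amino acids, each bound to the heavy chain Slc3a2. Kidney proximal tubule uses most of the same set to recover filtered sugar and amino acids.

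In Cdx1-/- mTEC both chains of the cystine and dibasic amino acid exchanger fell, Slc7a9 by 2.85-fold and Slc3a1 by 1.91-fold, while the basolateral exchanger gene Slc7a8 rose by 1.64-fold. The other 6 transporters that could be tested did not pass, with log2 differences of −0.53 to 0.12, and Slc15a1 was not well above background on any mTEC array and was not tested. So 3 of 9 members passed, beside 12.9% of all genes tested (10.5% of all probes in a fit by probe, where the same number of members passed). Of them 2 fell and 1 rose, beside 6.6% of all 24337 genes tested that fell and 6.28% that rose. A log2 difference below 0 was seen in 7 of 9 members, beside 49.5% of all genes tested, and the median was −0.34, beside 0.0033 over all genes tested. All 9 transporters measured in both tissues were lower in mTEC than in SIEC, by 3.40-fold (Slc7a7) to 274-fold (Slc7a9).

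The sequences upstream of the 3 genes that passed in mTEC are printed because the study turns on a DNA-binding factor, Cdx1. They are the 250 bases before the RefSeq start on GRCm38.p6, 5′ to 3′ in the direction of the gene, at chr7:35448842-35449091 (plus strand, the first of 2 listed starts) for Slc7a9, chr17:85028097-85028346 (plus strand) for Slc3a1 and chr14:54781887-54782136 (minus strand) for Slc7a8. Capitals mark letters of 4 short motifs on either strand, some of which overlap: the core of CDX sites, TTTAT, part of the HNF1 site, GTTAAT, the core of HNF4 sites, CAAAGT, and the core of GATA sites, AGATAA.
Slc7a9: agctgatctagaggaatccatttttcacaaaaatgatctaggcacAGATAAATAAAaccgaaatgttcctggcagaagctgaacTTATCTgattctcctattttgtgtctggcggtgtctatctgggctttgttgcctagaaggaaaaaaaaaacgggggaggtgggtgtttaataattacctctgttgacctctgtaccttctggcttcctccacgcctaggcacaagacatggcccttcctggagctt
Slc3a1: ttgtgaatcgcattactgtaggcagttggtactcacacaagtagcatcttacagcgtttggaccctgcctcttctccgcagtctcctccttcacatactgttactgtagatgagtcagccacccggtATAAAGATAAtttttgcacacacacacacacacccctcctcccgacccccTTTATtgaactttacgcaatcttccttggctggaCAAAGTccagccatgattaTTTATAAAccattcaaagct
Slc7a8: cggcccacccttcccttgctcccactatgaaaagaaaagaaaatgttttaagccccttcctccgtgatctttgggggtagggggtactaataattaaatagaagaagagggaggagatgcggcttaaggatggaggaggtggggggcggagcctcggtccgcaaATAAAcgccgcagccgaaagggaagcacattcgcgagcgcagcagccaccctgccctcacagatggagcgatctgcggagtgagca

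The printed Slc7a9 window held 4 matches, 2 to the CDX core and 2 to the GATA core, while the window of its other listed start held none. Slc3a1 held 6, 4 to the CDX core with 1 each to the HNF4 and GATA cores, and Slc7a8 held 1, to the CDX core. Of the 10 transporters, whose RefSeq entries all matched by symbol, 4 had the CDX core in at least 1 of their windows, beside 41.1% of 27025 genes. The HNF4 core stood in 4 of 10 beside 14.1% of genes, the GATA core in 3 of 10 beside 11.4%, and the HNF1 letters in 1 of 10 beside 7.49%. Counted over single windows, 37.3%, 12.6%, 9.99% and 6.43% of 32851 windows held the CDX, HNF4, GATA and HNF1 letters. Such letters are a description of the sequence, not evidence of binding.

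The b0,+ exchanger was measured by a Slc7a9 probe at chr7:36250920-36250979 and a Slc3a1 probe at chr17:85463142-85463201, both on the plus strand of mm9, the build of the files. Which exon or UTR the probes cover was not analysed here. Slc7a9, the light chain that forms the transport path, read −3.36, −2.98 and −2.86 on the Cdx1-/- mTEC arrays, against −1.53, −1.52 and −1.60 on the Cdx1+/+ mTEC arrays. Every Cdx1-/- array lay below every Cdx1+/+ array, and the gap between the genotypes was larger than the spread within either. The means were −3.06 ± 0.26 and −1.55 ± 0.045 (SD, n = 3 each), so the log2 difference was −1.51 (SE 0.14), with a 95% interval of −1.84 to −1.18 (limma, adjusted p = 0.00372).

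Slc3a1, the heavy chain that brings Slc7a9 to the cell surface, read −4.01, −3.76 and −4.11 in Cdx1-/- mTEC, against −3.08, −2.80 and −3.20 in Cdx1+/+ mTEC. The groups did not overlap here either, although the probe was dim, the lowest signals called well above background on these arrays being −5.35 to −4.65. The means were −3.96 ± 0.18 and −3.03 ± 0.21 (SD, n = 3 each), so the log2 difference was −0.93 (SE 0.14), with a 95% interval of −1.28 to −0.59 (limma, adjusted p = 0.0120). With normexp background correction, which treats low signals differently, the Slc3a1 difference was −0.39 and did not pass (limma, adjusted p = 0.161). Within slide 1, which held all Cdx1+/+ and 2 of the 3 Cdx1-/- mTEC arrays, Slc7a9 was at −1.37 and Slc3a1 at −0.91 (limma, adjusted p = 0.00848 and 0.0368). On the SIEC arrays Slc7a9 read 5.99 (labelled Cdx1-/-) and 5.59 (labelled Cdx1+/+), and Slc3a1 read 3.75 and 2.94 in that order of labels.

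**Figure D1:**
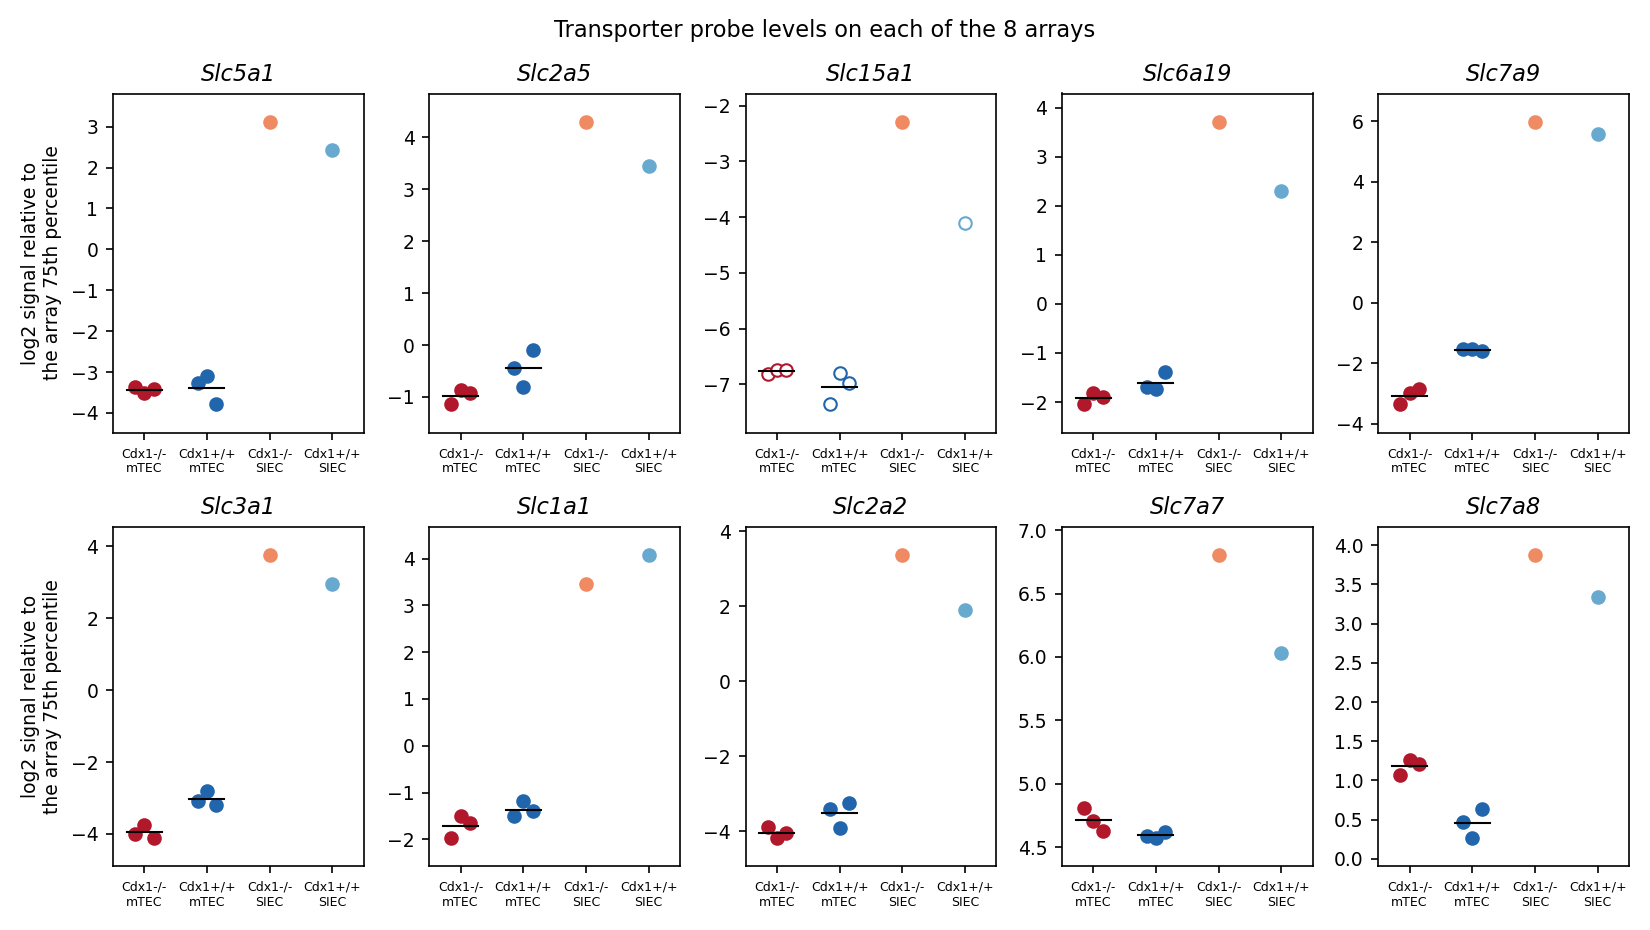
Level of each of the 10 transporter probes on the 8 arrays, on the vertical axis on the same log2 scale, by genotype and tissue on the horizontal axis. Each point is 1 array, bars are means of 3 arrays, open points were not well above background, and the vertical scale differs between panels. Slc7a9 lies between −3.36 and −2.86 in Cdx1-/- mTEC and between −1.60 and −1.52 in Cdx1+/+ mTEC, and Slc15a1 has 1 filled point.

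Of the 3 sugar transporters none passed limma's test in mTEC, though 2 had an unadjusted p under 0.05 (Slc2a2 and Slc2a5), as had 31.1% of all genes tested. Slc5a1, at chr5:33504561-33504620 (plus strand, mm9), read −3.37, −3.50 and −3.43 in Cdx1-/- mTEC, against −3.28, −3.11 and −3.79 in Cdx1+/+ mTEC. The Cdx1-/- values lay inside the range of the Cdx1+/+ values. The log2 difference was −0.041 with a 95% interval of −0.46 to 0.38 (limma, adjusted p = 0.899), and its sign turned when Cdx1+/+ replicate 1 or 2 was left out (0.016 and 0.10).

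Slc2a5, the fructose carrier at chr4:149517775-149517834 (plus strand, mm9), read −1.14, −0.87 and −0.93 in Cdx1-/- mTEC, against −0.44, −0.82 and −0.091 in Cdx1+/+ mTEC. All Cdx1-/- arrays were below all Cdx1+/+ arrays, but the nearest of them nearly met and the Cdx1+/+ arrays were widely spread. The log2 difference was −0.53 with a 95% interval of −0.98 to −0.079, which did not pass after adjustment (limma, adjusted p = 0.114).

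Slc2a2, which also serves as the glucose entry of mouse pancreatic beta cells and of liver, lies at chr3:28627016-28627075 (plus strand, mm9). It read −3.89, −4.17 and −4.03 in Cdx1-/- mTEC, against −3.41, −3.91 and −3.23 in Cdx1+/+ mTEC. The genotypes overlapped at 1 array on each side. The log2 difference was −0.51 with a 95% interval of −0.95 to −0.072 (limma, adjusted p = 0.116). Without Cdx1+/+ replicate 2 it was −0.71 and passed (limma, adjusted p = 0.0383), the only 1 of 14 alternatives in which it did. The probe was about as dim as that of Slc3a1, and with normexp the difference was −0.22 (limma, adjusted p = 0.270). Of 4 beta cell markers in mTEC, Ins1 and Ins2 passed as lower in Cdx1-/-, and Iapp was at 0.19 (limma, adjusted p = 0.170). Pdx1 also passed as lower, but was well above background on only 3 of the 6 mTEC arrays. Its Cdx1-/- mean of −5.81 lay below the lowest signals called well above background on those arrays, so its call is not counted. The summed linear level of the 4 was 20.2 to 20.9 on Cdx1-/- and 29.2 to 30.7 on Cdx1+/+ arrays. Of 4 hepatocyte markers 0 passed limma's test, 1 had an unadjusted p under 0.05, and their median difference was −0.091. The part of either cell type's transcripts in the Slc2a2 values was not tested.

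Among the other lumen-facing transporters, Slc6a19 at chr13:73818718-73818777 (minus strand, mm9) read −2.05, −1.82 and −1.89 in Cdx1-/- mTEC, against −1.69, −1.74 and −1.39 in Cdx1+/+ mTEC. The Cdx1-/- arrays were all lower, with a narrow gap. The log2 difference was −0.31 with a 95% interval of −0.61 to −0.017 and did not pass (limma, adjusted p = 0.143).

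Slc1a1, at chr19:28988332-28988391 (plus strand, mm9), is printed 10 times on the array, with a standard deviation between spots of 0.037 to 0.10. It read −1.97, −1.51 and −1.65 in Cdx1-/- mTEC, against −1.51, −1.19 and −1.40 in Cdx1+/+ mTEC. The groups touched without crossing. The log2 difference was −0.34 with a 95% interval of −0.69 to 0.0093 (limma, adjusted p = 0.170).

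Slc15a1, the peptide transporter at chr14:121859041-121859100 (minus strand, mm9), read −6.81, −6.75 and −6.74 in Cdx1-/- mTEC, against −7.36, −6.80 and −6.98 in Cdx1+/+ mTEC. None of these 6 values was well above background, so they have no order. The probe was well above background on 1 array of 8, the SIEC array labelled Cdx1-/-, at −2.29, and read −4.11 on the array labelled Cdx1+/+.

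Neither of the blood-facing amino acid exchangers was lower in Cdx1-/- mTEC. Slc7a8, at chr14:55341137-55341196 (minus strand, mm9), is also printed 10 times, with a standard deviation between spots of 0.030 to 0.12. It read 1.07, 1.26 and 1.21 in Cdx1-/- mTEC, against 0.48, 0.27 and 0.64 in Cdx1+/+ mTEC. Every Cdx1-/- array was above every Cdx1+/+ array.

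The Slc7a8 means were 1.18 ± 0.097 and 0.46 ± 0.19 (SD, n = 3 each), so the log2 difference was 0.72 (SE 0.12), with a 95% interval of 0.43 to 1.00 (limma, adjusted p = 0.0150). Within slide 1 the difference was 0.77 (limma, adjusted p = 0.0322), and without Cdx1+/+ replicate 1 it was 0.72 and missed the threshold (limma, adjusted p = 0.0506). Slc7a7, at chr14:54989166-54989225 (minus strand, mm9), read 4.81, 4.71 and 4.63 in Cdx1-/- mTEC, against 4.59, 4.57 and 4.62 in Cdx1+/+ mTEC. The arrays were barely apart, with a log2 difference of 0.12, a 95% interval of −0.079 to 0.33 and no call (limma, adjusted p = 0.368). Their shared heavy chain Slc3a2 was at −0.16 (limma, adjusted p = 0.388).

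**Figure D2:**
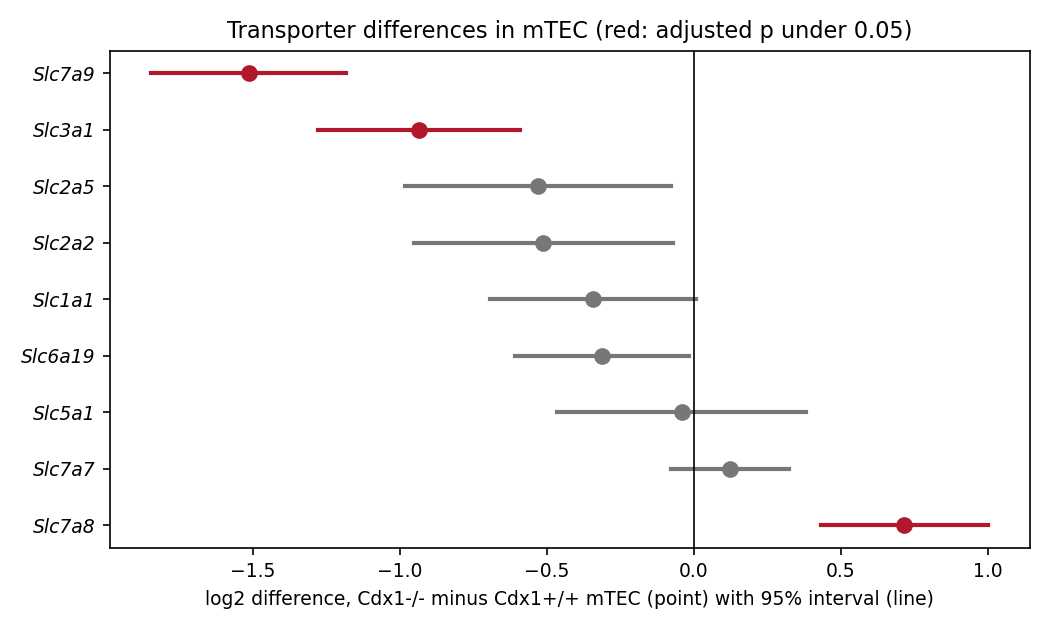
Log2 difference between Cdx1-/- and Cdx1+/+ mTEC on the horizontal axis for the 9 transporters tested, with 95% intervals from limma on 3 arrays per genotype. Red marks the 3 with an adjusted p under 0.05, Slc7a9 at −1.51, Slc3a1 at −0.93 and Slc7a8 at 0.72.

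The arrays of the mTEC genotypes did not overlap for 7 of the 9 members tested, beside 38% of all genes tested, and in 5 of the 9 they did not overlap with Cdx1-/- the lower, beside 17.9% of all genes tested. At an unadjusted p under 0.05 stood 6 of the 9, beside the 31.1% of all genes given above. Of 8 markers of absorptive enterocytes, 6 passed as lower in Cdx1-/- mTEC and none passed as higher, at a median of −0.95. The shares of all genes tested, for this and the marker lists below, were 6.6% that fell and 6.28% that rose. The enterocyte markers' summed linear level was 31.7 to 34.2 on the Cdx1-/- arrays and 51.3 to 54.1 on the Cdx1+/+ arrays. Of 10 mature mTEC markers, 1 passed (Cd86, higher), and the median was 0.031. Of 6 thymocyte markers 1 passed (Ptcra, lower), with sums of 9.18 to 12.0 on Cdx1-/- and 10.1 to 13.9 on Cdx1+/+ arrays. Leukocyte and dendritic cell markers had sums of 12.6 to 16.3 in Cdx1-/- and 18.2 to 23.2 in Cdx1+/+ mTEC. By limma 0 of 5 were called and 2 had an unadjusted p under 0.05. Their median difference was −0.16, with Itgam at −0.88 and Ptprc at 0.18 (limma, adjusted p = 0.0908 and 0.481). Of 4 tuft cell markers 3 passed as higher (median 0.95), with sums of 4.42 to 5.27 on Cdx1-/- and 2.43 to 3.23 on Cdx1+/+ arrays. Of 4 enteroendocrine markers 3 passed as lower (median −0.63), with sums of 44.2 to 46.8 and 75.2 to 78.7 in the same order of genotypes. The part of other cells in the transporter differences was not tested.

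Genes that work with the transporters were looked at as lists, beside 6.6% of all genes tested that fell and 6.28% that rose. Of 6 genes that handle sugar inside or at the surface of the enterocyte, 5 fell in Cdx1-/- mTEC, none rose, and the median was −0.59. Over the 14 alternatives 4 to 5 of these 6 passed as lower. Khk, the fructokinase that starts fructose breakdown, was at −0.51 (limma, adjusted p = 0.0114). G6pc, which frees glucose from its phosphate, was at −0.62 and Treh, the brush border trehalase, at −1.15 (limma, adjusted p = 0.00937 and 0.0125). Tkfc, which phosphorylates glyceraldehyde, was at −0.55 and is named after its value was seen (limma, adjusted p = 0.0326). Fbp1, of gluconeogenesis, was at 0.11 (limma, adjusted p = 0.406). The fructose carrier Slc2a5, described above at −0.53, did not itself pass.

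Of 8 measured partners and motors of the transporters, 2 fell and none rose, with a median of −0.27. Among them was Slc9a3, the sodium-proton exchanger whose proton gradient serves Slc15a1, at −0.56 (limma, adjusted p = 0.0499). Neither call stood with slide as a block, where 0 of the 8 passed, at a median of −0.27. Atp1b1, a sodium pump subunit, was at 0.14, Cltrn, the kidney partner of Slc6a19, at −0.34, and the scaffold gene Slc9a3r1 at −0.45 (limma, adjusted p = 0.275, 0.0524 and 0.0901).

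Among 8 other sugar transporters tested, 2 fell, Slc2a13 at −0.45 and Slc2a9 at −0.87, and 1 rose, Slc5a9 at 0.43 (limma, adjusted p = 0.0331, 0.0383 and 0.0414). The list's median was −0.071, and none of the 3 calls stood with normexp. Of 10 other amino acid and peptide transporters 0 passed limma's test and 3 had an unadjusted p under 0.05, near the 31.1% of all genes, at a median of −0.047. Those of smallest p there were Slc6a20a at −0.35, Slc6a6 at 0.45, Slc1a5 at −0.29 and Slc43a2 at −0.20.

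Because several of the 10 transporters also work in kidney, 9 proximal tubule transporters were listed, of which 6 could be tested. In Cdx1-/- mTEC 3 of the 6 fell and none rose, at a median of −0.49, beside 6.6% of all genes tested that fell. The phosphate transporter gene Slc34a1 was at −0.71, the glucose transporter gene Slc5a2 at −0.60 and the lactate transporter gene Slc5a12, which gut also expresses, at −0.58 (limma, adjusted p = 0.00794, 0.0135 and 0.0289). Slc22a6, an organic anion transporter, was at −0.39 (limma, adjusted p = 0.184). With normexp or slide as a block, 2 of the 6 passed.

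**Figure D3:**
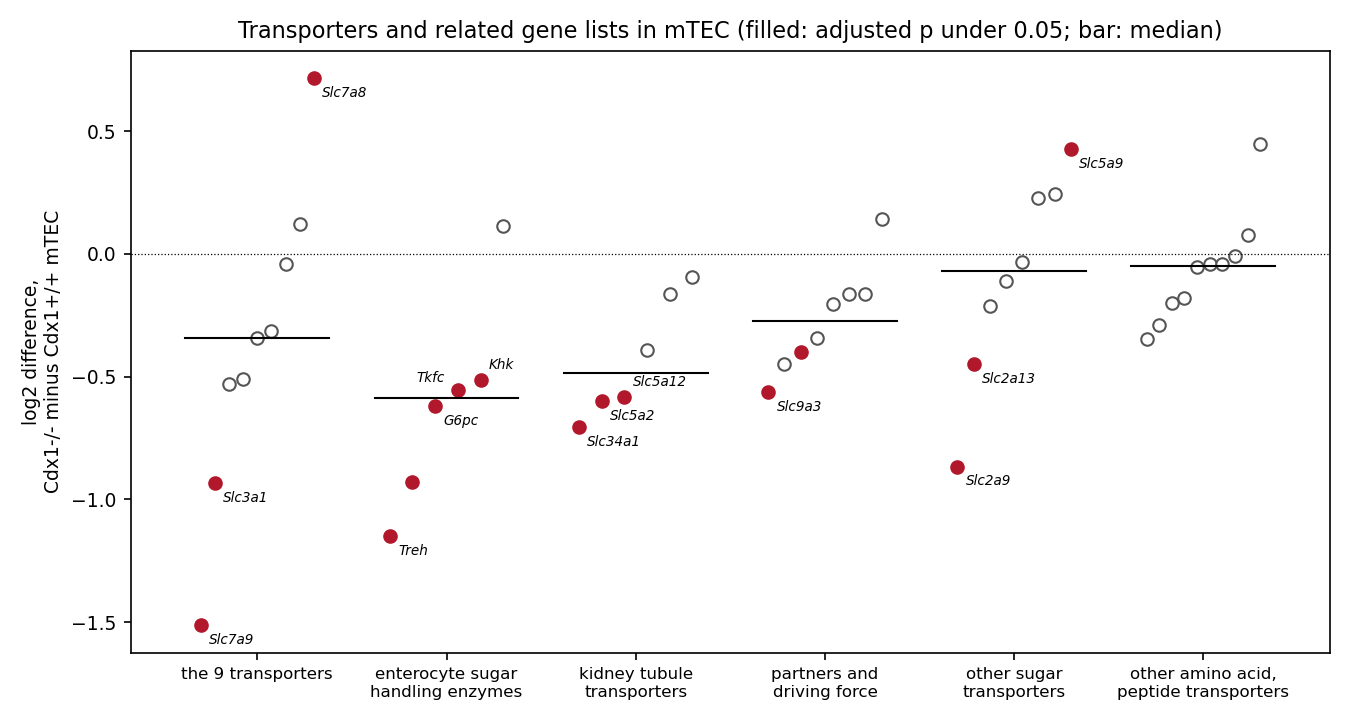
Log2 difference between Cdx1-/- and Cdx1+/+ mTEC on the vertical axis for the 9 transporters tested and 5 lists of related genes on the horizontal axis. Points are genes, filled where the limma adjusted p was under 0.05, with the genes described in the text named, and bars are list medians. Filled points lie below 0 for 5 of 6 sugar handling genes, and no point is filled among the 10 other amino acid and peptide transporters.

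Against SIEC, the 9 transporters measured in both tissues were all lower in mTEC and passed the test, beside 49.3% of 25272 genes that were lower, 34.3% that were higher and 83.6% that passed in either direction. In 7 of the 9 the fitted difference was at least 8-fold, beside 4.89% of all genes tested. The median over these 9 was −5.30, and over all genes it was −0.43, a shift that moved to −0.097 with quantile normalization, −0.55 with normexp and −0.90 in the authors' table. Only 1 array per genotype represents SIEC, and both sit on slide 2 with 1 mTEC array. Fitted with the SIEC array labelled Cdx1-/- alone or with that labelled Cdx1+/+ alone, all 9 passed (the lone array taken to vary like mTEC arrays), but sizes moved: Slc2a2 to −7.39 and −5.42, Slc7a9 to −9.06 and −7.14, Slc3a1 to −7.71 and −5.97, Slc6a19 to −5.63 and −3.91, and Slc2a5 to −5.28 and −3.89. Those of Slc1a1 (−5.16 and −5.44) and Slc7a8 (−2.69 and −2.88) moved little.

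The span ran from the b0,+ light chain to the blood-facing exchangers. Slc7a9 averaged −2.31 ± 0.85 (SD, n = 6) in mTEC and 5.79 ± 0.29 (SD, n = 2) in SIEC, so that the mTEC signal was 0.365% of the SIEC signal, a log2 difference of −8.10 (SE 0.38; limma, adjusted p = 5.07e-07). Its partner Slc3a1 differed by −6.84 (0.872% of SIEC), Slc2a2 by −6.40 (1.18%) and Slc5a1 by −6.19 (1.37%). With normexp they differed by −7.22 (Slc7a9), −5.47 (Slc3a1), −5.07 (Slc2a2) and −4.98 (Slc5a1), for mTEC shares of 0.669%, 2.26%, 2.97% and 3.16%. By fitted value these 4 had the smallest mTEC shares of the 9 measured in both tissues. With the SIEC array labelled Cdx1+/+ alone, Slc1a1 (−5.44) came below Slc2a2 (−5.42).

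Slc1a1 differed by −5.30 (2.54% of SIEC), Slc6a19 by −4.77 (3.67%) and Slc2a5 by −4.59 (4.16%), with limma adjusted p-values of 4.88e-08 to 5.44e-06. The 95% intervals of Slc1a1, Slc6a19 and Slc2a5 overlapped each other, so their order is not resolved. Those of Slc1a1 and Slc6a19 also overlapped the interval of Slc2a2, and that of Slc1a1 touched that of Slc5a1. Slc7a8 differed by −2.78, with a mTEC signal of 14.5% of SIEC (0.82 ± 0.41 in mTEC, n = 6, and 3.60 ± 0.38 in SIEC, n = 2, SD). Slc7a7 was the nearest to its SIEC level, with 4.65 ± 0.090 in mTEC (SD, n = 6) and 6.42 ± 0.54 in SIEC (SD, n = 2), a difference of −1.76 or 29.5% of SIEC (limma, adjusted p = 1.69e-05). With quantile normalization the Slc7a7 difference was −0.74, or 60.0% of SIEC, and the Slc7a8 difference −2.17, or 22.3%.

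Slc15a1 was well above background on 0 of 6 mTEC and 1 of 2 SIEC arrays, so it is not counted above. Its SIEC mean, which includes the array not well above background, was 3.21-fold above the mean of the lowest signals called so on the mTEC arrays. With normexp its fitted difference was −1.57. Within slide 2, Cdx1-/- mTEC replicate 1 lay below the SIEC array labelled Cdx1-/- by a log2 difference of −1.99 for Slc7a7 to −9.35 for Slc7a9, which leaves no replicate to show a spread. For the genes that passed between genotypes, the levels ran upward in the order Cdx1-/- mTEC, Cdx1+/+ mTEC and SIEC for Slc7a9 and Slc3a1, and Cdx1+/+ mTEC, Cdx1-/- mTEC and SIEC for Slc7a8. For the other measured transporters the mTEC genotypes are neighbours that were not told apart by the test, and both lay below SIEC.

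The SIEC pair, with 1 array per label, allows values but no test of genotype. On the array labelled Cdx1-/-, 9 of the 10 transporters read higher than on that labelled Cdx1+/+, beside 45.4% of 18970 genes measured in SIEC. At least 1.5-fold higher were 7, beside 12.5% of genes, and 1 was at least as far lower, beside 8.66%. The log2 differences were 1.82 for Slc15a1, 1.46 for Slc2a2, 1.41 for Slc6a19, 0.86 for Slc2a5, 0.81 for Slc3a1, 0.77 for Slc7a7, 0.69 for Slc5a1, 0.53 for Slc7a8 and 0.41 for Slc7a9, and −0.61 for Slc1a1. Their median was 0.79, beside −0.043 over the genes measured. The value for Slc15a1 sets 1 measured array against 1 that was not well above background, so its size is uncertain, and with normexp it was 0.71.

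Other markers differed between the same 2 arrays. Enterocyte markers summed to a linear level of 2980 on the array labelled Cdx1-/- and 1680 on that labelled Cdx1+/+ (median log2 difference 0.78, all 8 measured on both), nearly the median of the transporters. Thymocyte markers summed to 30.7 and 11.1 (median 1.30, with 4 of 6 measured on each), leukocyte and dendritic markers to 69.4 and 35.0 (median 0.95, 5 of 5 measured), and tuft cell markers to 1.68 and 4.57 (median −1.25, 3 of 4 measured) in the same order of labels. The part of these differences in the transporter values was not tested.

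Whether the genotype difference was unlike in the tissues was tested as a difference of differences, by label. The SIEC arrays give no spread of their own, which was taken to be that of the mTEC arrays. On that footing it passed for 4 of the 9 transporters measured in mTEC, all below 0. Of all 25272 genes 14.4% passed, with 8.87% below 0 and 5.56% above 0. The values, mTEC difference minus SIEC difference, were −1.97 for Slc2a2, −1.92 for Slc7a9, −1.74 for Slc3a1 and −1.72 for Slc6a19 (limma, adjusted p = 0.0200, 0.00908, 0.0134 and 0.00889). Slc15a1, at −1.54, entered the fit only through the SIEC array labelled Cdx1-/-, where it read high. Its mTEC values were at background, so its result is not counted. The signs depend on the SIEC labels, which the Cdx1 probe goes against. With these exchanged the values, without a test, were 0.94 for Slc2a2, −1.11 for Slc7a9, −0.12 for Slc3a1, 1.10 for Slc6a19 and 2.10 for Slc15a1. With normexp the call for Slc3a1 ended, at −1.09 (limma, adjusted p = 0.107), and Slc15a1 was also at −1.09.

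Of the rest, Slc7a7 at −0.65 and Slc2a5 at −1.39 narrowly missed (limma, adjusted p = 0.0513 and 0.0611), and Slc5a1 was at −0.73 (limma, adjusted p = 0.223). For Slc1a1 and Slc7a8 the differences by label had the same sign in both tissues, and with the SIEC labels exchanged (0.61 and −0.53 in SIEC) they had opposite signs. For Slc1a1, −0.34 in mTEC stood beside −0.61 in SIEC, and for Slc7a8, 0.72 in mTEC beside 0.53 in SIEC. The intervals of their differences of differences were −0.45 to 0.99 and −0.39 to 0.76.

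**Figure D4:**
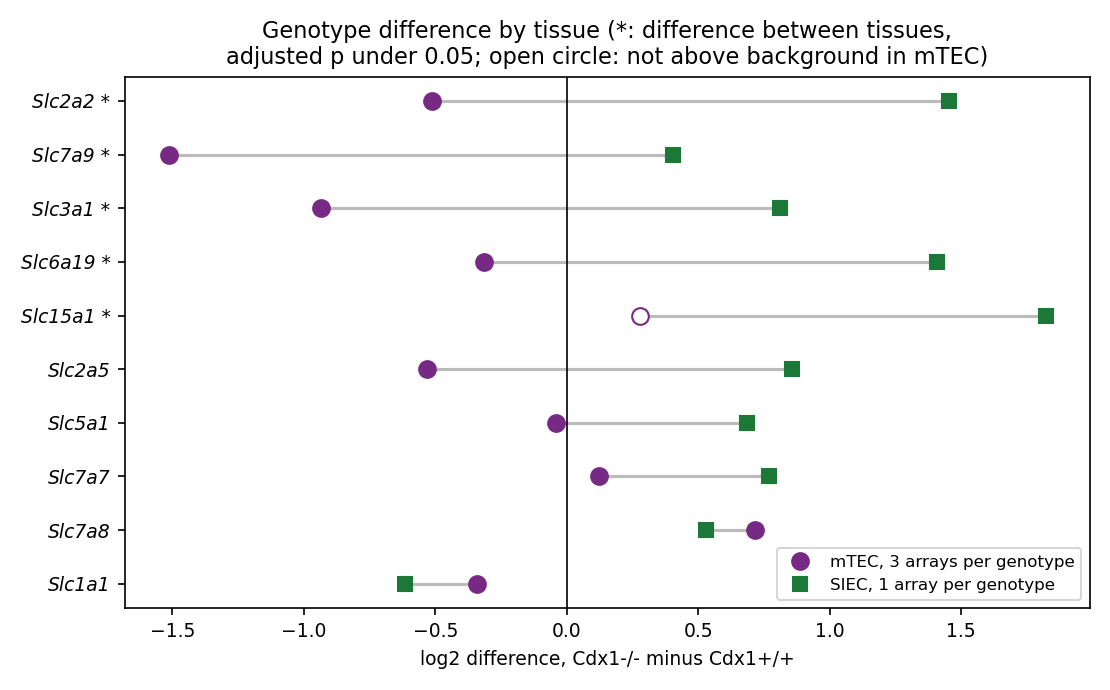
Log2 difference, Cdx1-/- minus Cdx1+/+, on the horizontal axis for each transporter in mTEC (purple circles, 3 arrays per genotype) and in SIEC by label (green squares, 1 array per genotype, so without error). Stars mark the 5 genes whose difference between tissues had a limma adjusted p under 0.05. The star of Slc15a1 is not counted in the text, since it entered the fit only through 1 SIEC array. For Slc7a9 the points are −1.51 in mTEC and 0.41 in SIEC, and the open circle of Slc15a1 was not well above background.

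The transporters did not share 1 profile over the 8 arrays. After each gene was centred on its own mean, the closest pair of members was Slc2a5 and Slc6a19, with a root mean square distance of 0.21 on the log2 scale, while Slc7a9 and Slc3a1 lay 0.63 apart. Among 12262 genes measured on all 8 arrays, the nearest to Slc7a9 was Guca2a, the gut peptide guanylin (0.21), which was at −1.19 in mTEC. The nearest to Slc3a1 was Ces2e, a carboxylesterase gene (0.19), at −0.82, and to Slc7a8 it was Ptgr1, a prostaglandin reductase gene (0.15), at 0.51. Slc5a1 was nearest to the brush border protease gene Mep1b (0.21), Slc2a2 to Cyp3a25 (0.24), Slc6a19 to Cyp2b10 (0.18), Slc2a5 to Slc16a5 (0.19), Slc1a1 to Gpx2 (0.14) and Slc7a7 to the aminopeptidase gene Dnpep (0.091). The gap between the tissues enters all of these profiles, and the distances are given without a test. The mTEC arrays enter them too, so a like genotype difference in mTEC follows from how the neighbours were picked.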

How the data were processed

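Intensity values per spot, deposited by the authors, come from Agilent Feature Extraction, per the submitters' processing notes. Per the file headers it was release 10.7.3.1, which background-subtracts and detrends each array without scaling arrays to each other. In the authors' deposited normalized values each array's intensity is multiplied by a single constant, whose choice no label or header explains. The flag for a spot well above background is the scanner software's, per the file headers.

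Non-control spots (59305, of 55681 probes) were used except those flagged as outliers, which removed 12 probes. Levels are log2 of the processed intensity over the array's 75th percentile, with spots of a probe averaged. A gene was tested on the brightest of its probes that passed the well-above-background flag on 2 or more of the 3 arrays of a group, or on the 1 array of a SIEC group. Tests used limma 3.58.1 (lmFit, eBayes) in R 4.3.3, were 2-sided and adjusted by Benjamini-Hochberg over all genes, with a threshold of 0.05: 6 mTEC arrays for genotype, all 8 with genotype as an additive term for tissue, and 4 groups for the difference of differences. Tables and plots used Python 3.11.15, pandas 2.3.3, numpy 2.4.6, scipy 1.17.1 and matplotlib 3.10.9, with the R package data.table (1.17.8). Alternatives were normexp (offset 50), quantile normalization, the authors' table, no or a strict filter, the mean of a gene's probes, leaving out each array, slide as a block and replicate number as a block. The number of arrays limits the precision.

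On simulated data, 85% of 200 genes shifted by a log2 of 1 were recovered in the mTEC comparison over 24337 genes, with 6 unchanged genes called. In the tissue comparison 77% were recovered, and in the difference of differences 94.5% at a shift of 3. The simulated noise was independent between arrays and only 200 genes changed, so these shares are not the power of the tests on the real arrays. Replicate numbers come from the sample titles. Same-numbered mTEC samples deviated together (r = 0.322, 0.147 and 0.148 over genes), so the numbers may pair the samples. The tests in the results ignore this pairing, and replicate number as a block was fitted only as an alternative. With that block Slc7a9, Slc3a1 and Slc7a8 still passed (limma, adjusted p = 0.0170, 0.0161 and 0.0305).

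The members and the gene lists were chosen with earlier results of these data known. All members are named; of each list, up to 4 genes of smallest p, and others for a stated reason, are named, and some genes that this rule takes are not reported here. Each mTEC sample was a separate pool of thymi, per the labels, and p-values measure the spread between pools. Promoter windows came from RefSeq (GRCm38.p6) and probe positions from the files (mm9); builds were not mixed.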

Additional observations from a re-analysis of the deposited data

Results flagged for a closer look

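For 4 transporters measured in both tissues the difference between Cdx1-/- and Cdx1+/+ in mTEC passed a test against the difference by label in SIEC. The spread of the lone SIEC arrays was taken to be that of the mTEC arrays. The values, mTEC difference minus SIEC difference on the log2 scale, were −1.97 for Slc2a2, −1.72 for Slc6a19, −1.92 for Slc7a9 and −1.74 for Slc3a1. Slc15a1 was flagged too, at −1.54, but entered the fit only through the SIEC array where it read high, so it is not counted. In SIEC these 4 and Slc15a1 were higher on the array labelled Cdx1-/-. In mTEC the test of genotype alone passed for Slc7a9 and Slc3a1 only, and Slc15a1 was not well above background. The SIEC side rests on 1 array per label, and there the Cdx1 probe read 6.48 on the array labelled Cdx1-/- and 4.87 on that labelled Cdx1+/+. With the SIEC labels exchanged the values were 0.94 for Slc2a2, 2.10 for Slc15a1, 1.10 for Slc6a19, −1.11 for Slc7a9 and −0.12 for Slc3a1, so 3 of the 5 turn sign.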

How the results depend on the processing

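The mTEC comparison had 14 alternatives, tissue 16 and the difference of differences 12, where leaving out arrays was added after seeing the data. In mTEC, genes past the threshold numbered 3136, against 1971 with normexp, 1322 with no filter on dim probes, 1778 when slide was blocked and 1054 to 1778 without 1 array. Blocking slide gives the same mTEC fit as leaving out Cdx1-/- replicate 1, so the 14 are 13 different fits. The members called numbered 2 to 4. Slc7a9 passed in all 14 (−1.62 to −1.04), Slc3a1 in 13 (not with normexp, −0.39) and Slc7a8 in 13 (not without Cdx1+/+ replicate 1, limma adjusted p = 0.0506). Slc2a2 passed in 1, without Cdx1+/+ replicate 2. Slc5a1 reversed to 0.016 and 0.10 without Cdx1+/+ replicate 1 and 2 (range without 1 array −0.24 to 0.10). With the replicate block 3472 genes and 3 members passed, and no member's call changed. The probe-level fit gave 3 members, also with the replicate block. Between tissues the 9 members measured in both passed in all 16. The difference of differences passed for 3645 genes, against 607 with normexp and 2276 without a filter. Members past the threshold were 5, with Slc15a1 among them, against 3 with normexp and 4 to 6 without 1 array. There Slc15a1 missed without Cdx1+/+ replicate 3 (−1.51, limma adjusted p = 0.0519), Slc2a5 passed without Cdx1+/+ replicate 2 (−1.57) and Slc7a7 with the strict filter (−0.65). The cause of these shifts was not tested. Probes near background limit the sizes given for Slc3a1, Slc2a2 and Slc5a1 in mTEC, and Slc15a1 has no level there.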
